A study of Rattus norvegicus with 50 samples.

Results

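Lungs of rats that had inhaled laser printer-emitted particles (PEPs) for 5 days were compared with lungs of rats that had inhaled them for 1 day. The groups were taken from the sample titles, and they held 5 lungs at day 5 and 5 lungs at day 1, which are 10 of the 50 lungs measured in the study. All rats were male Sprague-Dawley animals that were 9 weeks old when purchased and older when their lungs were collected. The exposed rats breathed the particles and gases of laser printer B1 by whole-body inhalation for 5 hours a day, in courses of up to 21 consecutive days. Control rats of the same strain, sex and age breathed HEPA-filtered air (Air) in the same sessions, and the 5 Air lungs of day 1 and the 5 Air lungs of day 5 were used here as the background for the same interval. The Air lungs share no sample with the exposed lungs. RNA was measured on Affymetrix Rat Gene 2.1 ST arrays, and every value below is a log2 expression value after robust multi-array averaging (RMA), so a difference of 1 is a doubling of the signal. The day of collection also separates the groups by age and by the number of sessions in the chambers, and these cannot be told apart from the longer exposure within the exposed lungs alone. The labels do not say whether the 10 arrays hold RNA of 10 different rats. The p-values cover only the variation between arrays of a group, pooled over all 50 arrays, and this variation may be technical. Exposures ran in more than 1 calendar year, and the labels do not give the year of a lung.

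The lung meets inhaled particles with several cell systems. Airway epithelium is made of ciliated cells, whose beating axonemes move mucus out of the airways, and secretory cells, which release secretoglobins, mucins and antimicrobial proteins. Alveolar macrophages take up particles that settle deeper, through scavenger receptors, and sense microbial products through Toll-like receptors. Polycyclic aromatic hydrocarbons, which combustion and printing emissions can carry, bind the aryl hydrocarbon receptor. The receptor then enters the nucleus and switches on genes of xenobiotic metabolism, above all Cyp1a1, and its own repressor Ahrr. Many lung genes also follow the time of day through the circadian clock, a loop in which CLOCK and BMAL1 drive the Per and Cry genes that repress them.

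The samples carried the markers of lung, although 1 of their labels speaks of blood. Over the 10 exposed lungs, the surfactant gene Sftpc lay between 13.04 and 13.16, the alveolar type 1 cell gene Ager between 11.94 and 12.48, and the endothelial cadherin gene Cdh5 between 11.68 and 12.24. Array medians of the study were between 4.92 and 5.11, and pairs of exposed lungs correlated over probe sets with r between 0.967 and 0.985. A few lungs stood apart. Day 1 replicate 1 carried hepatocyte RNA: the albumin gene Alb stood at 11.89 there and between 2.99 and 5.96 in the other 9 exposed lungs, and 16 of 17 hepatocyte markers had their highest value of all 50 lungs in it. Day 1 replicate 2 carried cardiac muscle RNA, with a mean score of the 15 cardiac markers of 1.45 (log2, relative to the mean of the 20 lungs of days 1 and 5) against -0.75 to -0.63 in the other 4 lungs of day 1. High cardiac scores were not confined to this lung. At day 5 the score ran from -0.28 to 1.11 in exposed lungs and from -0.75 to 1.69 in Air lungs. The fit was therefore run with all 10 lungs and again without day 1 replicate 1, and the list medians of both are in the plot of list medians.

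The fit held all 50 arrays, so the spread and the array weights came from all 10 groups. Besides the groups of days 1 and 5, these were exposed and Air lungs with the title marks D9, D21 and D21T, of days 9 and 21. With all 10 exposed lungs in it, 11 of 8202 genes tested passed at an adjusted p below 0.05 (limma, Benjamini-Hochberg), which is 0.134%. Of these, 6 rose (0.0732%) and 5 fell (0.061%) from day 1 to day 5. The genes that fell were Tlr7, a receptor for single-stranded RNA in endosomes, Relt, a receptor of the tumor necrosis factor family, Ucp2, a carrier of the inner mitochondrial membrane, Ndufaf1, an assembly factor of respiratory complex I, and Tmem37, a membrane protein related to calcium channel subunits. The genes that rose were Rln3, the neuropeptide relaxin 3, Rnf212, a factor of meiotic recombination, Romo1, a mitochondrial modulator of reactive oxygen species, Cenpv, a centromere protein, Bhlhe23, a transcription factor, and Ear1l1, a gene named for its likeness to the eosinophil-associated ribonucleases. Without day 1 replicate 1, 2 genes passed, which is 0.0244%. These were Rnf212 (adjusted p = 0.0151) and Rln3 (adjusted p = 0.0388), while the other 9 lay between adjusted p = 0.0665 and adjusted p = 0.0777 with log2 differences of the same sign. Leaving out each of the 10 lungs in turn gave between 1 gene (without day 1 replicate 5 or day 5 replicate 2) and 46 genes (without day 5 replicate 5), and equal array weights gave 2. A fit of only the 20 lungs of days 1 and 5 called 1 gene, Rln3. A fit of only the 10 exposed lungs called 1 gene, Kcnh3, and 0 of the 11 genes above. At 1.5-fold or more, whatever the p, 278 genes differed with all lungs (3.39%; 202 or 2.46% higher and 76 or 0.927% lower at day 5) and 286 without day 1 replicate 1 (3.49%; 212 or 2.58% higher, and 74 lower). A total of 1115 genes (13.6%) had an unadjusted p below 0.05, where 410 would be given by 8202 tests at that level with no difference.

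Rnf212 had values of 2.75, 2.65, 2.65, 2.62 and 2.54 in the lungs of day 1 and 3.38, 3.10, 3.32, 3.04 and 3.24 in those of day 5. The groups did not overlap, and the log2 difference was 0.60 ± 0.11 (SE; adjusted p = 0.0112). Its level was low in every lung. In Air lungs its means were 2.88 ± 0.10 (SD, n = 5) at day 1 and 2.89 ± 0.18 at day 5. Rln3 was measured at 2.68, 2.67, 2.52, 2.87 and 2.90 at day 1 and at 3.78, 3.81, 3.46, 3.48 and 3.18 at day 5, again without overlap (0.77 ± 0.15, adjusted p = 0.0152). Ear1l1 lay between 2.06 and 2.33 at day 1 and between 2.49 and 3.30 at day 5, and Bhlhe23 between 1.76 and 2.33 and between 2.44 and 3.15. These 4 genes have means over all arrays below 4.99, the median of all probe sets, where array signals are close to background. The probe set of Ear1l1 belongs to a multigene family and may read more than 1 member.

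The other genes that passed were brighter, but most of their calls did not hold when single lungs were left out. With each of the 10 exposed lungs left out in turn, Relt was called in 1 fit and Tlr7 and Ucp2 in 2. Ndufaf1, Tmem37, Romo1 and Cenpv were called in 3. Tlr7 stood at 7.62, 7.40, 7.52, 7.63 and 7.75 at day 1 and at 7.0, 7.13, 6.91, 7.06 and 6.81 at day 5. Every lung of day 5 was lower than every lung of day 1 (log2 difference -0.62 ± 0.14, adjusted p = 0.0442, and adjusted p = 0.0751 without day 1 replicate 1). In Air lungs its means were 7.23 ± 0.31 and 7.08 ± 0.19. Ucp2, one of the most abundant transcripts of this set, was 11.35, 11.25, 11.30, 11.28 and 11.26 at day 1 and 10.82, 10.59, 10.94, 10.76 and 10.94 at day 5. The spread at day 1 was only 0.04 (SD, n = 5), and the log2 difference was -0.45 ± 0.10 (adjusted p = 0.0493). Relt fell from 6.19 ± 0.17 to 5.57 ± 0.15, Ndufaf1 from 6.69 ± 0.12 to 6.03 ± 0.37, and Tmem37 from 7.59 ± 0.12 to 6.71 ± 0.38 (SD, n = 5 each). Romo1 rose from 7.27 ± 0.20 to 7.70 ± 0.08 and Cenpv from 6.50 ± 0.25 to 7.04 ± 0.16. None of the 11 genes had overlapping groups of exposed lungs. They were selected by their p in the same lungs, so this follows largely from the selection and adds no support. Over all genes tested, the lungs of the 2 days did not overlap for 299 genes (3.65%), of which 179 were higher (2.18%) and 120 lower (1.46%) at day 5.

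Only Romo1 of these 11 genes also passed in Air lungs, where its log2 difference was 0.42 ± 0.10 (adjusted p = 0.0134). The change in exposed lungs minus the change in Air lungs was tested for every gene, and 0 of 8202 passed; 486 (5.93%) had an unadjusted p below 0.05 and the smallest adjusted p was 0.386. Among the 11 genes, 7 had a difference of changes with an unadjusted p below 0.05, namely Rnf212, Rln3, Ear1l1, Bhlhe23, Ndufaf1, Relt and Tlr7. The 11 genes were selected by their change in exposed lungs, which is itself a part of this difference. Small p-values are therefore built in for them, and their share cannot be set against that of all genes. For Tlr7 it was -0.52 ± 0.20 (adjusted p = 0.782). The genes with the smallest p in this test were Epm2a, the glycogen phosphatase laforin, Rln3, Fut1, a fucosyltransferase, Dnajb1, a heat shock cochaperone, and Zfp53, a zinc finger gene (adjusted p = 0.386 to 0.471). Epm2a lay between 5.75 and 6.30 at day 1 and between 5.29 and 5.55 at day 5 in exposed lungs, without overlap, while its Air means were 5.03 ± 0.30 and 5.86 ± 0.27.

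The genes of 1.5-fold or more with the smallest p held a few further families. The threshold of 0.05 was narrowly missed by Rpl10, a ribosomal protein gene with many processed copies (0.63 ± 0.15), Kcnh3, a potassium channel gene (0.84 ± 0.20), the olfactory receptor gene Or2ag20 (1.01 ± 0.24) and Lrrc15 (0.67 ± 0.16), each higher at day 5 and not overlapping, with an adjusted p that rounds to 0.05 and lies just above it. Rpl10 and Kcnh3 had nearly the same difference in Air lungs, at 0.59 and 0.82, and both passed there (adjusted p = 0.0172 and 0.0142). Fam131c (0.64 ± 0.16), Gle1l1 (0.78 ± 0.19), Klri2, a natural killer (NK) cell lectin-like receptor (0.79 ± 0.21), Prr36 (0.61 ± 0.16) and Morn5 (0.61 ± 0.17) followed, with adjusted p from 0.0663 to 0.0856. On the lower side, after Tmem37, Ndufaf1, Relt and Tlr7, stood Fabp4, Sfta2, Pilrb1l1, Olr1, Spetex2g, Parvg, Il1rn and Myct1, with log2 differences from -1.20 ± 0.30 for Fabp4 to -0.60 ± 0.15 for Myct1 and adjusted p from 0.0519 to 0.0827. Fabp4 is a fatty acid carrier of adipocytes, macrophages and endothelium, Sfta2 a secreted protein of surfactant-producing cells, Olr1 the receptor for oxidized low-density lipoprotein, Parvg an adhesion protein of blood cells and Il1rn the antagonist of interleukin 1. Values of Il1rn were 7.27, 7.33, 7.48, 7.33 and 7.40 at day 1 and 6.28, 6.60, 7.0, 6.85 and 6.97 at day 5, so the groups did not overlap (-0.62 ± 0.16, adjusted p = 0.0827), and its Air difference was -0.45 ± 0.16.

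The direction of the differences varied with the level of the gene. When the 8202 genes were split into 5 equal sets by their mean level, the median log2 difference of exposed lungs was 0.07 in the dimmest set and -0.07 in the brightest. The corresponding medians of Air lungs were 0.00 and -0.09. With genes under the median level of all probe sets left out, 266 of the remaining 3479 genes passed (7.65%; 87 or 2.5% higher and 179 or 5.15% lower), and 7 of the 11 genes above were among them, the other 4 being the dim genes that this leaves out. The larger set holds Cyp1a1, Tlr5, Cd68, Msr1, Plin2, Sc5d, Nsdhl, Lpl and Tekt2, which are described below with their values in the fit of 8202 genes. Their calls depend on that filter, and the counts for both fits are given.

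The largest drop of any gene tested belonged to Cyp1a1, the cytochrome P450 that the aryl hydrocarbon receptor induces most strongly. It stood at 6.83, 5.30, 9.32, 10.82 and 9.71 in the lungs of day 1 and at 5.15, 4.59, 5.05, 6.23 and 5.16 in those of day 5. At day 1 it was high in replicates 3, 4 and 5 and low in replicate 2, so the groups overlapped, and at day 5 it was low in all 5. The log2 difference was -3.29 ± 1.08, a 9.77-fold lower level (adjusted p = 0.153), and it was -3.50 without day 1 replicate 1. With dim genes left out it was called as lower, 1 of 4 targets of the receptor tested, against 5.15% of all genes in that fit. Air lungs also held single high lungs, at 11.21 in replicate 4 of day 1 and at 8.76 and 10.81 in replicates 4 and 5 of day 5, and the Air difference was 0.34 ± 1.08. The difference between the exposed and the Air change was -3.63 ± 1.52 (adjusted p = 0.81). Exposed lungs of day 5 had a narrow spread of 0.60 (SD, n = 5), against 2.27 in those of day 1, 2.71 in Air lungs of day 1 and 2.58 in Air lungs of day 5.

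The other receptor targets followed less clearly. Ahrr, the repressor of the receptor, was 3.23, 3.26, 3.91, 4.71 and 3.35 at day 1 and 3.23, 3.52, 2.80, 2.65 and 3.14 at day 5 (-0.68 ± 0.41, adjusted p = 0.452). The lungs highest in Cyp1a1 in each group of controls, replicate 4 at day 1 and replicate 5 at day 5, were also the highest in Ahrr, at 6.19 and 5.72, as was replicate 4 of the exposed day 1 lungs. Cyp1b1, a related monooxygenase, differed by -0.15 ± 0.22, the aldehyde dehydrogenase Aldh3a1 by -0.19 ± 0.20, and the quinone reductase Nqo1 by 0.09 ± 0.21. Of 5 receptor targets tested, 1 was higher, and the median was -0.19, against 0.02 over all genes tested, of which 54.2% were higher. Without day 1 replicate 1 the median was -0.22, and in Air lungs it was 0.10.

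The core sequence that the receptor complex binds, TNGCGTG on either strand (CACGCNA on the other), lies in the 250 bases before the start of 2 of the 3 tested targets with a RefSeq promoter, and in 1370 of 33469 rat promoters (4.09%). No promoter sequence of Cyp1a1 was available, so Cyp1a1 was not searched for the element. The promoters of Ahrr (GRCr8, chr1:30821969-30822218, plus strand) and Cyp1b1 (GRCr8, chr6:21094315-21094564, plus strand) are shown because both carry the element. Capitals mark the match, which begins 59 bases before the start in Ahrr and 22 bases before it in Cyp1b1. A match is a description of the letters and not of binding.
Ahrr: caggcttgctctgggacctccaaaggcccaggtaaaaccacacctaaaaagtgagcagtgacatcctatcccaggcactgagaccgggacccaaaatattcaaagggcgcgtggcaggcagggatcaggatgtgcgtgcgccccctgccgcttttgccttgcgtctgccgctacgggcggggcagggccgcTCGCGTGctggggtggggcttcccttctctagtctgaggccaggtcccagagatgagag
Cyp1b1: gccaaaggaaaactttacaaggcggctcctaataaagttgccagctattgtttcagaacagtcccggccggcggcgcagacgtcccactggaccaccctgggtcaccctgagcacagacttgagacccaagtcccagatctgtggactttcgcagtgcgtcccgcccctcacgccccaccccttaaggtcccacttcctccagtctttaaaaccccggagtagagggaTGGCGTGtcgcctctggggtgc

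**Figure D1:**
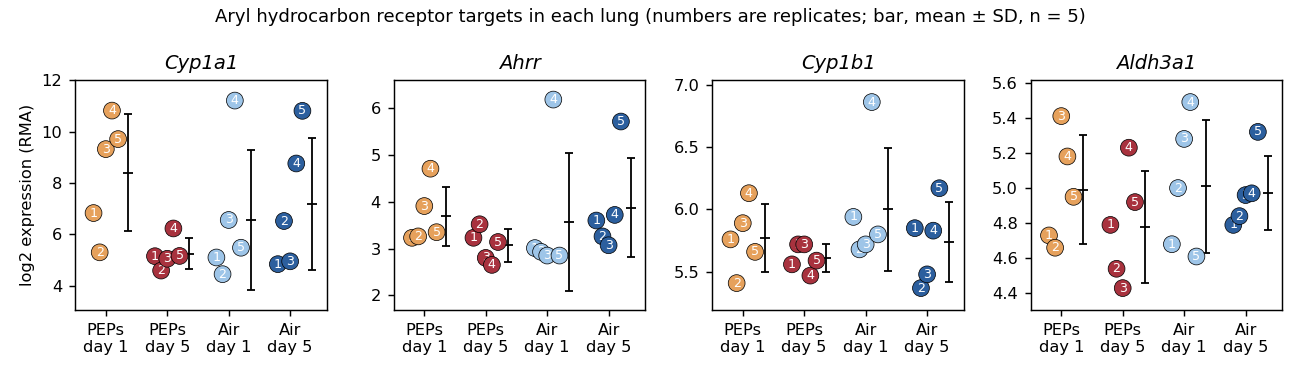
Log2 expression (RMA) of Cyp1a1, Ahrr, Cyp1b1 and Aldh3a1 in each lung of the exposed (PEPs) and Air groups at days 1 and 5; points are lungs numbered by replicate, and bars are mean ± SD (n = 5). Cyp1a1 lies between 4.59 and 6.23 in the exposed lungs of day 5, while the other groups hold 3 lungs (exposed day 1), 1 lung (Air day 1) and 2 lungs (Air day 5) above 8.

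Macrophage genes were lower at day 5. Of 12 macrophage markers tested, 11 were lower and 1 higher, the median log2 difference was -0.23 (-0.24 without day 1 replicate 1 and -0.11 in Air lungs), and 5 were lower at an unadjusted p below 0.05, where 5.97% of all genes were. In Air lungs 11 of the 12 were also lower, and the difference of changes had an unadjusted p below 0.05 for 1 of the 12. Between the exposed days none passed after adjustment in the fit of 8202 genes. With dim genes left out, 2 of 9 markers tested were called as lower, Cd68 and Msr1, against 5.15% of all genes in that fit. Cd68, a lysosomal protein of macrophages, was 8.56, 8.13, 8.41, 8.70 and 8.43 at day 1 and 7.93, 7.79, 8.42, 7.83 and 8.0 at day 5 (-0.42 ± 0.15, adjusted p = 0.188). All lungs of day 5 but replicate 3 lay under the lowest lung of day 1. Msr1, a scavenger receptor that takes up particles, went from 7.72 ± 0.22 to 7.33 ± 0.24 (SD, n = 5; -0.36 ± 0.14, adjusted p = 0.213). Fabp4 was 4.83, 5.92, 4.31, 5.16 and 5.59 at day 1 and 4.92, 3.86, 4.04, 3.79 and 3.59 at day 5, with replicate 1 of day 5 inside the range of day 1. Retnla, a secreted marker of alternatively activated macrophages, had the largest difference of the list at -1.46 ± 0.48 (adjusted p = 0.163), with day 5 replicate 2 at 9.87 and the other 4 lungs of that day between 7.09 and 8.45. The mean score of the 12 markers, relative to the mean of the 20 lungs of days 1 and 5, ranged from -0.02 to 0.38 at day 1 and from -0.29 to -0.01 at day 5. In whole-lung RNA, fewer cells of a type and less RNA per cell cannot be told apart.

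Among the Toll-like receptors, a family picked by symbol after their values were seen, 5 of 6 tested were lower with a median of -0.35. The flagellin receptor Tlr5 was 6.06, 6.48, 6.18, 6.04 and 6.54 at day 1 and 5.45, 5.17, 5.53, 5.25 and 6.01 at day 5. Its groups did not overlap (-0.80 ± 0.25, adjusted p = 0.139, and -0.83 without day 1 replicate 1). With dim genes left out, 2 of 3 receptors tested were called as lower, Tlr5 and Tlr7, against 5.15% of all genes in that fit. Tlr3, the receptor for double-stranded RNA, went from 8.36 ± 0.13 to 8.02 ± 0.11 (-0.36 ± 0.13), and its Air difference was almost equal at -0.34 ± 0.13. All 6 receptors were also lower in Air lungs, with a median of -0.25. The family score lay between 0.07 and 0.31 in the exposed lungs of day 1 and between -0.23 and -0.02 in those of day 5.

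**Figure D2:**
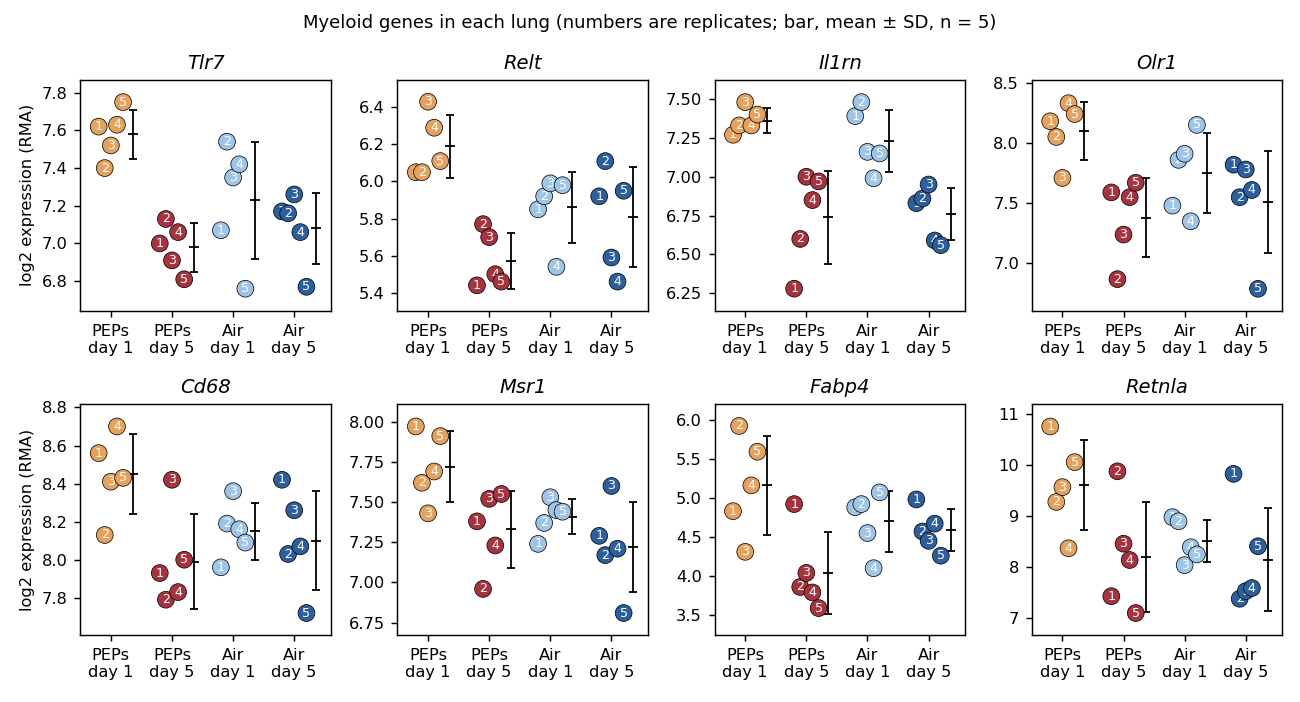
Log2 expression (RMA) of 8 genes in each lung of the exposed and Air groups at days 1 and 5. Points are lungs numbered by replicate, and bars are mean ± SD (n = 5). Tlr7, Relt, Il1rn and Olr1 were named for their small p and do not overlap between the exposed days. Cd68, Msr1, Fabp4 and Retnla are of the macrophage list and do overlap. Of the 12 macrophage markers tested, 0 were lower without overlap.

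Other leukocyte genes differed by smaller amounts. All 8 tested genes of B and plasma cells had negative or near-zero differences (median -0.11), with Fcrla at -0.39 ± 0.15 and the IgM receptor gene Fcmr at -0.39 ± 0.19, and none passed. Of 10 mast cell and basophil genes 7 were lower, with the protease gene Cpa3 at -0.83 ± 0.37 in exposed lungs and -1.40 ± 0.37 in Air lungs, where it passed (adjusted p = 0.0238). NK cell genes ran the other way, with 9 of 11 higher and a median of 0.14 in exposed lungs (0.17 without day 1 replicate 1) and 0 of 11 higher in Air lungs (median -0.07). The receptor subunit gene Klrd1 was 4.98, 4.93, 5.35, 4.80 and 4.90 at day 1 and 5.50, 5.86, 5.82, 5.24 and 5.22 at day 5, where only replicate 3 of day 1 reached into the range of day 5 (0.53 ± 0.20, adjusted p = 0.221). The 14 T cell genes had a median of 0.01 and the 12 neutrophil genes one of -0.05. The neutrophil granule gene Lcn2 lay between 9.84 and 10.33 in 4 lungs of day 1 and at 8.64 in replicate 4 (-0.54 ± 0.25).

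Genes of motile cilia were higher at day 5 without passing the test. All 9 motile cilia markers were higher, each by 1.5-fold or more, with a median of 0.65 (0.68 without day 1 replicate 1), and 8 of 9 had an unadjusted p below 0.05, where 7.62% of all genes did in that direction. None passed after adjustment over 8202 genes. Tekt2, a tektin that forms part of the axonemal microtubule doublets, was 6.86, 6.51, 7.21, 6.26 and 6.60 at day 1 and 7.2, 7.41, 7.30, 7.24 and 7.36 at day 5 (0.65 ± 0.20, adjusted p = 0.123). Replicate 3 of day 1 reached into the range of day 5. With dim genes left out, Tekt2 was called as higher, 1 of 9 markers tested, against 2.5% of all genes in that fit. Ccdc40, which anchors the inner dynein arms, was 6.68, 6.23, 6.80, 6.08 and 6.47 at day 1 and 7.14, 7.14, 7.32, 7.26 and 6.90 at day 5, without overlap (0.74 ± 0.28, adjusted p = 0.213). The radial spoke gene Rsph4a differed by 0.76 ± 0.30 and the outer arm dynein gene Dnai1 by 0.65 ± 0.26.

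The wider axoneme family, picked by symbol after the values were seen, had 57 of 59 tested genes higher (median 0.57), 34 at an unadjusted p below 0.05 and 29 at 1.5-fold or more. These 29 were part of the 202 genes at that fold (2.46% of all genes tested), and 13 of the 59 were higher without overlap between the days, as were 2.18% of all genes. With dim genes left out, 10 of 55 were called as higher, against 2.5% of all genes in that fit. The same genes were higher over the same interval in Air lungs, where the 9 cilia markers had a median of 1.08. All 9 passed as higher in Air, as did 3.23% of all genes. Of the 59 family members, 58 were higher in Air with a median of 1.00, and 46 passed as higher. The Air calls rest on single lungs, since 0 genes passed in Air without day 5 replicate 3 or without day 5 replicate 4. The difference between the exposed and the Air change had an unadjusted p below 0.05 for 0 of the 9 markers.

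Airway secretory genes were higher in 6 of 8 cases, with a median of 0.64 in exposed lungs (0.66 without day 1 replicate 1) and 1.61 in Air lungs. The secretoglobin gene Scgb3a1 was 6.57, 10.17, 7.69, 6.50 and 6.39 at day 1 and 9.87, 9.29, 8.98, 8.19 and 8.93 at day 5 (1.53 ± 1.13, adjusted p = 0.563). Its highest lung of all 10 was day 1 replicate 2, the lung with cardiac muscle RNA. Bpifb1, a secreted protein of the airway lining, was 5.32, 6.0, 5.79, 5.53 and 4.97 at day 1 and 7.63, 8.02, 7.40, 6.69 and 5.78 at day 5 (1.53 ± 0.83, adjusted p = 0.41). Agr2, which folds mucins, went from 7.08 ± 0.23 to 7.96 ± 0.46 without overlap (0.85 ± 0.43). In Air lungs of day 5, Scgb3a1 split into lungs at 12.37 and 12.21, 1 lung at 9.46 and lungs at 6.24 and 6.82, and Bpifb1 was highest in the same replicates 3 and 4. Cardiac muscle genes were also high in these Air lungs, with Myh6 at 8.25 and 7.90.

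Cardiac muscle markers, which in rat lung come with the muscle sleeve of the pulmonary veins, moved with the airway genes in several lungs. Myh6, the atrial-type myosin heavy chain, was 2.07, 8.09, 2.27, 2.74 and 2.45 at day 1 and 6.43, 7.41, 4.20, 5.32 and 6.32 at day 5 (2.08 ± 1.34, adjusted p = 0.497). Apart from day 1 replicate 2, every lung of day 5 was above every lung of day 1. Myl7, the atrial light chain, showed the same order, at 3.37 to 4.22 in 4 lungs of day 1, 8.58 in replicate 2 and 5.83 to 8.69 at day 5. The list of 15 had 12 higher genes with a median of 0.12, and the myoglobin gene Mb differed by -0.05 ± 1.00. In Air lungs all 15 were higher with a median of 0.92, and 0 passed. Adding the hepatocyte, cardiac and cilia scores as covariates, a fit that holds the cilia genes in its own terms, gave a median of -0.02 for the axoneme family and -0.18 for the secretory list, left 0 genes called and lowered the count at 1.5-fold from 278 to 135. The part of tissue sampling in these results was not tested.

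Many ciliary genes are driven by RFX factors, which bind the X-box. A palindromic form of it, GTTGC and GCAAC with any 3 bases between them, which reads the same on both strands, lies in the 250 bases before the start of 4 of the 48 axoneme genes with a RefSeq promoter (8.3%: Cfap90, Dnai2, Tekt2 and Tekt4), and in 75 of 33469 promoters (0.22%). The promoters of Tekt2 (GRCr8, chr5:143907725-143907974, minus strand) and Dnai2 (GRCr8, chr10:100258772-100259021, plus strand) are shown because both are cilia markers above, and because the letters of the element are the same in both. Capitals mark the match, which begins 36 bases before the start in Tekt2 and 62 bases before it in Dnai2.
Tekt2: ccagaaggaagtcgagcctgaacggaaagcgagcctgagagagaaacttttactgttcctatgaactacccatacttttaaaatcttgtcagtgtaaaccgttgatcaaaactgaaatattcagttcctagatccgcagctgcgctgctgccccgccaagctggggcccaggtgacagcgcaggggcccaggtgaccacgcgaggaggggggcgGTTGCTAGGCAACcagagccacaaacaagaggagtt
Dnai2: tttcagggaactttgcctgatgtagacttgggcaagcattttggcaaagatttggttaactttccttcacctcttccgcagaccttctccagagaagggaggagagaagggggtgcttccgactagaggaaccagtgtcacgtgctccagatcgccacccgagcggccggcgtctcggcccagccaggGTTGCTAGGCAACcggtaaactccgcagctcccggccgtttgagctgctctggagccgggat

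**Figure D3:**
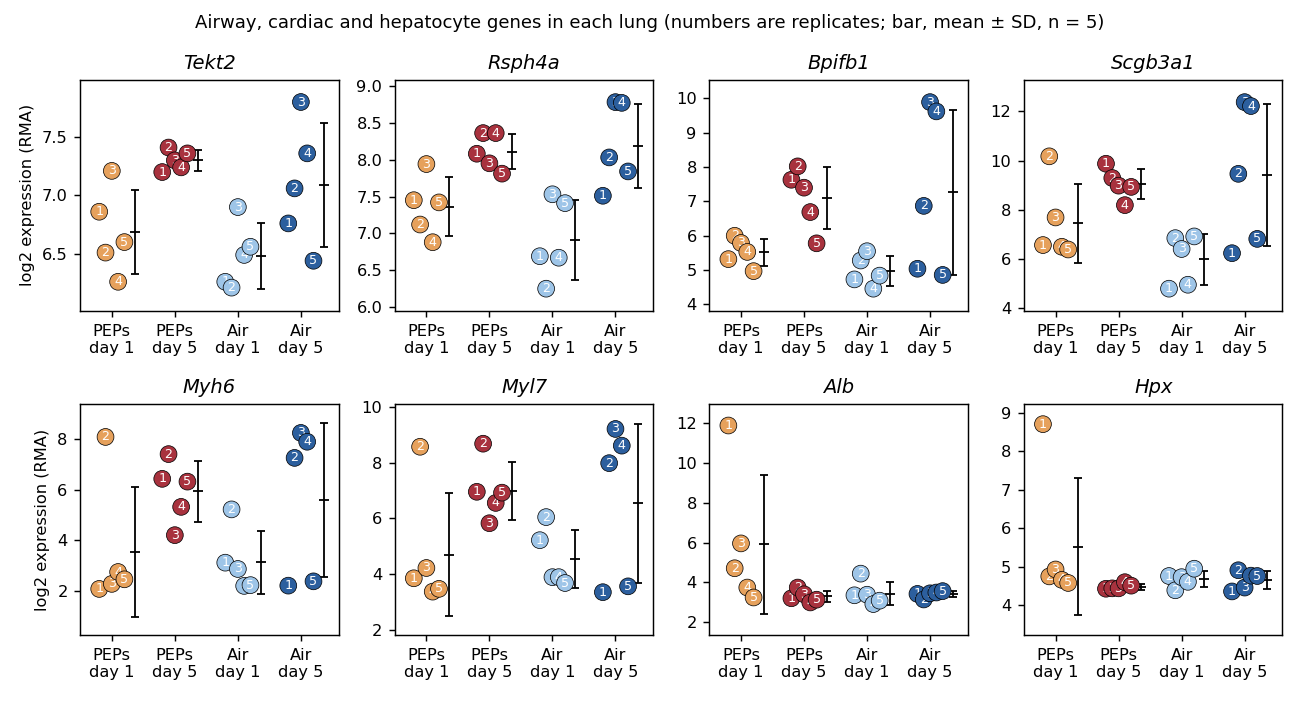
Log2 expression (RMA) of 4 airway genes (Tekt2, Rsph4a, Bpifb1, Scgb3a1), 2 cardiac genes (Myh6, Myl7) and 2 hepatocyte genes (Alb, Hpx) in each lung of the exposed and Air groups at days 1 and 5; points are lungs numbered by replicate, and bars are mean ± SD (n = 5). Alb and Hpx are high in day 1 replicate 1 of the exposed lungs, at 11.89 and 8.70, and Myh6 and Myl7 in day 1 replicate 2, at 8.09 and 8.58.

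Hepatocyte genes were lower at day 5, and this moved with 1 lung. Of 17 markers 14 were lower with a median of -0.53, which became -0.07 without day 1 replicate 1. Alb was 11.89, 4.71, 5.96, 3.74 and 3.24 at day 1 and 3.20, 3.74, 3.4, 2.99 and 3.13 at day 5 (-1.83 ± 0.58, adjusted p = 0.143). Without replicate 1 the difference of Alb was -1.0, with replicates 2 and 3 still above the lungs of day 5. The hemopexin gene Hpx went from -0.65 ± 0.30 to -0.22 in the same way, and the prothrombin gene F2 from -0.53 ± 0.27 to -0.18. In Air lungs the list had a median of 0.02.

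Interferon-stimulated genes had medians of opposite sign in exposed and Air lungs, the Air one with 1 high lung at day 1. In exposed lungs 11 of 14 were higher at day 5 with a median of 0.25 (0.21 without day 1 replicate 1), while in Air lungs 0 of 14 were higher and the median was -0.22. The mean score of the list was 0.93 in replicate 2 of the Air lungs of day 1, while the other 4 lay between -0.26 and 0.04 and the Air lungs of day 5 between -0.16 and 0.11, so that only this lung lay apart. The ubiquitin-like modifier gene Isg15 was 5.25, 5.28, 5.83, 5.74 and 5.13 at day 1 and 5.38, 6.30, 5.77, 6.23 and 6.21 at day 5 (0.52 ± 0.23, adjusted p = 0.296). In Air lungs Isg15 went from 5.97 ± 0.58 to 5.63 ± 0.20, where replicate 2 of day 1 stood at 6.98, and the difference of changes was 0.86 ± 0.32 (adjusted p = 0.782). Isg15 was the 1 gene of the 14 whose difference of changes had an unadjusted p below 0.05. Its deconjugating enzyme gene Usp18 differed by 0.41 ± 0.25. The exposed lungs overlapped widely for the list score, from -0.44 to 0.16 at day 1 and from -0.40 to 0.43 at day 5, with replicate 1 the lowest on both days.

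Immediate early and heat shock genes had medians above 0 in exposed lungs and below 0 in Air lungs. The difference was not tested for either list as a whole. Gene by gene, the difference of changes had an unadjusted p below 0.05 for 0 of 16 immediate early and 2 of 8 heat shock genes. Of all genes, 5.93% did. Of 16 immediate early genes, the first to answer a stimulus or handling, 11 were higher in exposed lungs (median 0.16) and 2 in Air lungs (median -0.20). The mean score of the list stood at 0.48 in replicate 1 of the exposed day 5 lungs and between -0.08 and 0.13 in the other 4, against -0.19 to 0.25 at day 1, so only that lung lay above the range of day 1. In Air lungs of day 1 it was 0.59 in replicate 1 and between -0.18 and 0.06 in the other 4. Junb was 7.56, 7.68, 7.62, 7.43 and 7.64 at day 1 and 8.01, 7.97, 7.79, 8.13 and 7.79 at day 5, without overlap (0.35 ± 0.17, adjusted p = 0.355), and Klf4 differed by 0.33 ± 0.17. Of 8 heat shock genes 5 were higher (median 0.23, and 0.28 without day 1 replicate 1), and in Air lungs 2 were (median -0.17). Dnajb1 was 7.33, 6.74, 7.16, 6.74 and 6.70 at day 1 and 7.21, 7.43, 7.28, 7.25 and 7.32 at day 5, while its Air means were 7.39 ± 0.17 and 7.0 ± 0.12. The difference of its changes was 0.83 ± 0.21 (adjusted p = 0.471). Hspa4l, a chaperone gene, was higher in both, by 0.63 ± 0.24 in exposed lungs and 0.93 ± 0.24 in Air lungs.

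Among lists of lipid metabolism, cholesterol genes were lower at day 5 without passing the test. All 7 tested genes of cholesterol synthesis and uptake were lower with a median of -0.25 (-0.24 without day 1 replicate 1), whereas in Air lungs 3 of 7 were lower and the median was 0.08. Sc5d, which carries out one of the last steps of the pathway, was 9.02, 8.72, 8.83, 8.92 and 8.88 at day 1 and 8.52, 8.25, 8.24, 8.32 and 8.73 at day 5. Only replicate 5 of day 5 reached the lowest lung of day 1 (-0.44 ± 0.11, adjusted p = 0.0708; Air -0.11 ± 0.11). Sc5d and Nsdhl, a demethylating dehydrogenase of the pathway (-0.29 ± 0.12), were called as lower with dim genes left out. These were 2 of 7 genes tested, against 5.15% of all genes in that fit. For 3 of the 7 genes the difference of changes had an unadjusted p below 0.05, where 5.93% of all genes did, and Sc5d was among them (adjusted p = 0.825).

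Of 5 fatty acid synthesis genes 3 were lower and 2 higher (median -0.08, and 0.03 in Air lungs), and none passed. Fatty acid oxidation genes were lower in 6 of 9 cases with nearly equal medians in exposed (-0.30) and Air lungs (-0.32). Besides Ucp2, which passed, the lipoprotein lipase inhibitor Angptl4 was 5.79, 5.70, 6.09, 4.79 and 5.24 at day 1 and 5.56, 4.29, 4.47, 4.10 and 4.25 at day 5 (-0.90 ± 0.26, adjusted p = 0.118). Replicate 1 of day 5 lay within the range of day 1. In Air lungs Angptl4 fell by 1.03 on the log2 scale (adjusted p = 0.0192). The lipid droplet coat gene Plin2 differed by -0.44 ± 0.14 and the lipase gene Lpl, of the adipocyte list, by -0.36 ± 0.13. With dim genes left out, 2 of 8 oxidation genes tested were called as lower, Ucp2 and Plin2. Lpl was called as lower as 1 of 3 adipocyte genes tested. Of all genes in that fit, 5.15% were called as lower.

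Several smaller groups were described by their counts. Cell cycle genes were lower in 14 of 18 cases (median -0.19), and in Air lungs 13 of 18 were lower with a median of -0.06. In exposed lungs the ribonucleotide reductase gene Rrm2 differed by -0.59 ± 0.21 and Foxm1, a regulator of mitotic genes, by -0.33 ± 0.15. All 13 matrix genes were lower, with differences from -0.27 to -0.02 and a median of -0.12, and in Air lungs 12 of 13 were lower with a median of -0.22. Endothelial genes were lower in 4 of 4 cases (median -0.11; Air -0.04), and the alveolar type 2 cell genes Etv5, a transcription factor, and Abca3, a lipid transporter of surfactant, differed by -0.31 ± 0.12 and -0.18 ± 0.17. Of 10 glucocorticoid-induced genes 7 were lower, with the metallothionein gene Mt2A at 4.86 ± 0.68 and 3.67 ± 0.54 (-1.03 ± 0.32, adjusted p = 0.13). The 7 antioxidant targets of NRF2 had a median of -0.03, with 3 higher, and Hmox1 at -0.18 ± 0.12. In Air lungs all 7 were higher with a median of 0.21, and none passed. For 0 of the 7 the difference of changes had an unadjusted p below 0.05. The 17 inflammatory cytokine and chemokine genes had a median of 0.03, with 9 higher. The chemokine gene Ccl20 differed by 0.91 ± 0.55 and the inducible nitric oxide synthase gene Nos2 by 0.37 ± 0.13 (adjusted p = 0.173).

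**Figure D4:**
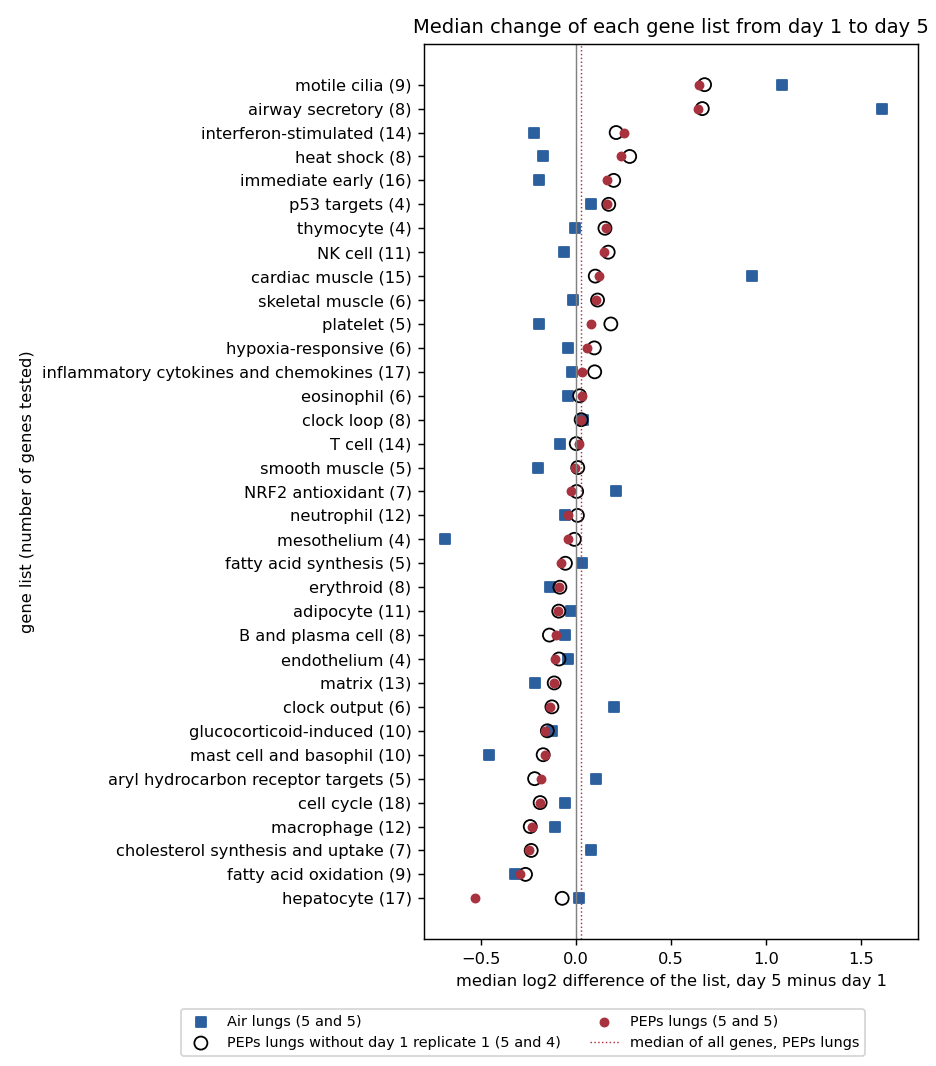
Median log2 difference from day 1 to day 5 of each gene list with at least 4 genes tested, for the exposed lungs (filled circles), the exposed lungs without day 1 replicate 1 (open circles) and the Air lungs (squares); the dotted line is the median of all genes in exposed lungs, 0.02. Leaving out replicate 1 moved the hepatocyte median from -0.53 to -0.07, and the motile cilia and airway secretory lists lie farthest to the right.

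The clock genes Dbp and Bmal1 had differences of opposite sign in exposed and Air lungs. Dbp, an output gene driven directly by CLOCK and BMAL1, was 10.38, 10.40, 10.34, 10.69 and 11.14 at day 1 and 9.07, 10.46, 10.22, 10.48 and 10.25 at day 5 (-0.60 ± 0.32, adjusted p = 0.408). Replicate 1 of day 5 was far below the other 9 lungs. In Air lungs Dbp rose from 9.23 ± 0.78 to 10.46 ± 0.26 (1.07 ± 0.32, adjusted p = 0.046), and the difference of changes was -1.67 ± 0.46 (adjusted p = 0.562). Per2 differed by -0.02 ± 0.28 in exposed and by 0.80 ± 0.28 in Air lungs. Bmal1, which peaks opposite to Dbp and Per2, was 7.50, 7.44, 7.63, 7.05 and 6.59 at day 1 and 8.18, 7.45, 7.37, 7.43 and 7.34 at day 5 (0.41 ± 0.29), with replicate 1 of day 5 the highest, and its Air difference was -0.70 ± 0.29. Of the 8 genes of the clock loop, 4 were higher and 4 lower in both intervals, with medians of 0.02 in exposed and 0.03 in Air lungs. The difference of changes had an unadjusted p below 0.05 for 4 of the 8, where 5.93% of all genes did, and none passed after adjustment. The time of day at which each lung was collected is not given in the labels.

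**Figure D5:**
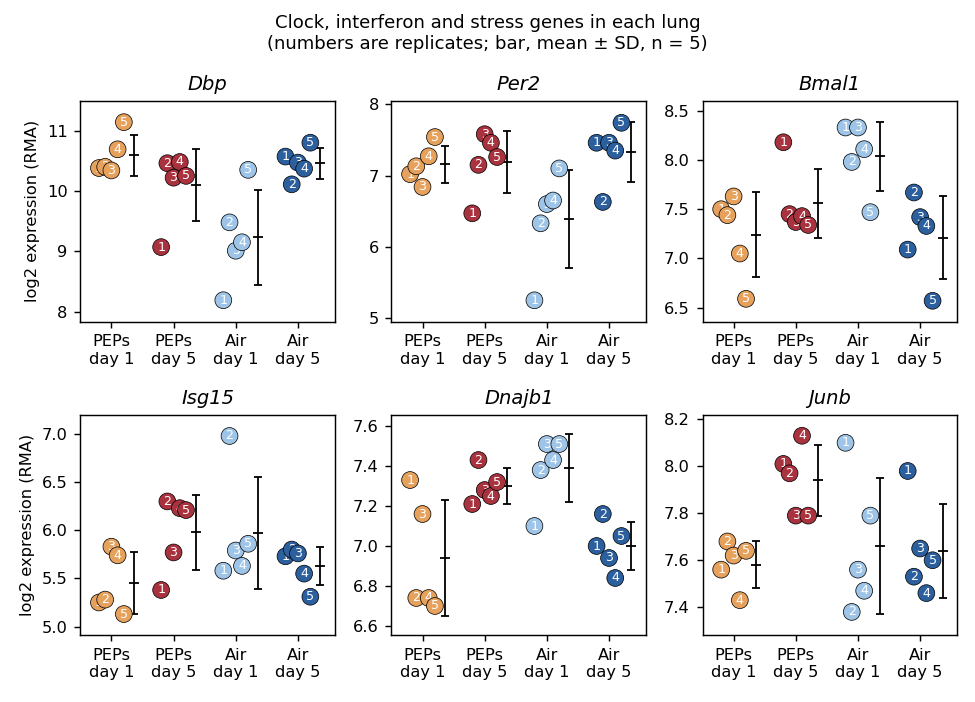
Log2 expression (RMA) of the clock genes Dbp, Per2 and Bmal1, the interferon-stimulated gene Isg15, the heat shock gene Dnajb1 and the immediate early gene Junb in each lung of the exposed and Air groups at days 1 and 5; points are lungs numbered by replicate, and bars are mean ± SD (n = 5). Day 5 replicate 1 of the exposed lungs is the lowest of its group in Dbp, at 9.07, and the highest in Bmal1, at 8.18.

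The exposed and the Air interval were set side by side. In Air lungs 308 genes passed (3.76%; 265 or 3.23% rose and 43 or 0.524% fell) and 420 genes (5.12%) differed by 1.5-fold or more (346 or 4.22% higher and 74 lower). Of the 278 genes at that fold in exposed lungs, 247 had the same sign in Air, and 158 reached the fold in both, which is 56.8% of the exposed and 37.6% of the Air genes; 156 of the 158 had the same sign. Across the 8202 genes the 2 sets of differences correlated with r = 0.461, a description over genes that are not independent and that were normalized together. Kcnh3 (0.84 in exposed and 0.82 in Air lungs) and Rpl10 (0.63 and 0.59) were among the 158, and Romo1 had differences of 0.45 and 0.42, below that fold. Cyp1a1, Tlr7, Relt, Rln3, Rnf212, Fabp4 and Sfta2 had Air differences between -0.11 and 0.34.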

How the data were processed

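The authors' deposited table gives log2 values for 36685 probe sets on 50 arrays, made by RMA with the oligo package in R 3.4 and analysed with limma, per the submitters' processing notes. Array signals near background are compressed, and the quantile normalization within RMA removes any shift shared by most genes. Arrays have no read depth, and the number of lungs limits the precision. Gene names came from the platform annotation: 14824 probe sets had 1 gene, 829 had several and were not used, and 21032 are not named here. This left 14557 genes, with the brightest set kept for the 234 genes that had several, and 14670 probe sets matched a current RefSeq record. Genes with a variance below 0.05 over the 50 arrays were not tested, following the methods of the study, which left 8202.

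One limma model (version 3.58.1, R 4.3.3) was fitted with a mean for each of the 10 groups, array weights (0.59 to 1.71, and 0.649 for day 1 replicate 1) and empirical Bayes moderation, the fit checked on simulated data. Two-sided p-values were adjusted by Benjamini-Hochberg over the 8202 genes of a comparison. Differences are weighted, so they depart slightly from differences of the plain means. The genes named were the 12 higher and 12 lower genes of smallest p among those at 1.5-fold with and without day 1 replicate 1, up to 4 genes of smallest p in each list, 10 genes fixed by name, and the 5 genes of smallest p in the test of the difference of changes. Cenpv, Romo1, Bhlhe23, Tlr3 and Tlr5 fall outside this rule and were named after their values were seen, as were the symbol families and the motifs searched. The 40 lists hold 529 genes, of which 399 are named and 326 were tested. The members and lists were chosen with earlier results of these data known. A list is described by its counts and median beside those of all genes, with no test of the list. Promoters and gene starts are from RefSeq (GRCr8). Alternatives were equal weights, other filters, scaling, samples and moderation, a replicate block, tissue covariates and leaving out each lung.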

Additional observations from a re-analysis of the deposited data

Results flagged for a closer look

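In 12 of 180 groups of 5 exposed lungs (90 genes described, at days 1 and 5), the highest or lowest lung lay so far from the next that the gap took up more of the whole range than Dixon's 95% limit allows. Chance alone gives about 1 in 20 groups. The value in each case below is this gap as a share of the range. Day 1 replicate 1 was the high lung for the hepatocyte genes Itih3 (0.866; 6.84 against 3.12 to 3.62), Hpx (0.917; 8.70 against 4.58 to 4.93) and F2 (0.779; 5.90 against 2.29 to 3.09), and also for the chaperone gene Hsph1 (0.903; 9.27 against 8.53 to 8.60). Day 1 replicate 2 was the high lung for the muscle genes Myh6 (0.889; 8.09 against 2.07 to 2.74), Myl7 (0.836; 8.58 against 3.37 to 4.22) and Mb (0.835; 6.45 against 3.69 to 4.14). Day 5 replicate 1 was low in Dbp (0.811; 9.07 against 10.22 to 10.48) and high in Bmal1 (0.873; 8.18 against 7.34 to 7.45) and in Angptl4 (0.742; 5.56 against 4.10 to 4.47). Spetex2g was high in day 1 replicate 3 (0.720; 3.68 against 2.89 to 3.11), and Lcn2 was low in day 1 replicate 4 (0.711; 8.64 against 9.84 to 10.33).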

How the results depend on the processing

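The number of genes called between the exposed days moved with most settings. Against 11 genes (6 higher and 5 lower), equal array weights gave 2 (both higher), no variance filter 108 (31 higher, 77 lower), dim genes left out 266 (87 higher, 179 lower), arrays centred on their medians 2 (both higher), robust moderation with a trend 17 (9 higher, 8 lower), only the 20 lungs of days 1 and 5 gave 1 (Rln3), only the 10 exposed lungs 1 (Kcnh3), and tissue scores as covariates 0. Leaving out 1 lung gave between 1 and 46: 2 without day 1 replicate 1, 4 without replicate 2, 13 without replicate 3, 2 without replicate 4 and 1 without replicate 5, and 39, 1, 3, 2 and 46 without day 5 replicates 1 to 5. Rnf212 and Rln3 were each called with 9 of the 10 lungs left out in turn. Ear1l1 was called with 4, Bhlhe23, Cenpv, Ndufaf1, Romo1 and Tmem37 with 3, Tlr7 and Ucp2 with 2, and Relt with 1. Kcnh3, called in the 10 exposed lungs alone, is not among the 11 genes.

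Genes at 1.5-fold or more numbered 278, and 135 with tissue covariates (71 higher, 64 lower); without 1 lung the count lay between 245 and 380. In Air lungs the 308 calls became 7 with equal weights and 0 with tissue covariates, and ranged from 0 to 487 without 1 lung (0 without day 5 replicate 3 or 4, 3 without day 1 replicate 2, 128 and 149 without day 1 replicates 1 and 4, 487 without day 5 replicate 1). For the difference of changes, 0 genes were called, against 1 (Epm2a) with only the 20 lungs of days 1 and 5. The cause of these shifts was not tested.

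The same replicate number did not pair the lungs: deviations of same-numbered exposed lungs correlated with r from -0.0476 to 0.0879, and those of Air lungs from -0.0503 to 0.224. With the replicate number as a block, 2 genes were called between the exposed days (Rnf212 and Rln3), 384 between the Air days, and 2 in the difference of changes (Dbp and Epm2a).

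List medians were recomputed without day 1 replicate 1 and with centred arrays, and all 78 values moved by less than the pooled SD between lungs. For the hepatocyte list that SD (1.18) is itself set by day 1 replicate 1, and its median went from -0.53 to -0.07 without that lung. Of 1825 values of named genes under the alternatives, 1615 kept their direction and side of the threshold, 127 lost it, 59 gained it and 24 changed sign. The sign changes belonged to 11 genes. With tissue covariates they were Rsph4a -0.002, Dnai1 -0.005, Bpifb1 -0.004, Tnni3 -0.015, Scgb3a2 -0.042, Agr2 -0.079, Nqo1 -0.100, Ccl20 -0.166 and Scgb3a1 -0.495. Leaving out 1 lung, Nqo1 ranged from -0.037 (without day 5 replicate 3) to 0.226 and was also below 0, at -0.015, without day 1 replicate 2. Per2, near 0 with all lungs, was 0.024 with equal weights, 0.000 without the variance filter, 0.038 with dim genes left out and 0.029 with the replicate block, and without 1 lung it ranged from -0.157 to 0.190. Mb was 0.102 with equal weights and 0.024 in the 10 exposed lungs alone, and it ranged from -0.342 to 0.510 without 1 lung, the highest without day 1 replicate 2.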

Other observations

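Olfactory and vomeronasal receptor genes, picked by symbol after their values were seen, made up 1097 of the 8202 genes tested, and nearly all of them are dim. Their median log2 difference was 0.06, with 681 higher at day 5, where 54.2% of all genes were. By 1.5-fold or more 18 were higher and 3 lower, against 2.46% and 0.927% of all genes, and none was called. In the 2 dimmest of the 5 sets by level, the medians over all genes were 0.07 and 0.06, close to that of this family. In Air lungs the family median was 0.00 and 542 were higher. The family score was 0.20 in day 5 replicate 2 and between -0.07 and 0.03 in the other 9 exposed lungs. Genes of the mesothelium, which lines the lung surface, had a median of -0.05 in exposed and -0.69 in Air lungs over 4 genes, with Msln at 0.52 ± 0.29 in exposed lungs.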
